A study of Mus musculus with 9 samples.

Results

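Susd5, Mab21l2, Klhl4, Hnf4a, Maf and Spic were followed in myeloid progenitors (MPs) that carry the NUP98-HOXA10hd fusion gene (NA) and in wild-type (WT) MPs. They are 6 of the 37980 genes in the count table, and were selected on their expected counts in these same samples, low in WT MPs and higher in NA MPs. Because of that choice, the difference of each of the 6 genes between NA MPs and WT MPs is a description and carries no test. The label of strongest genes, silent in WT MPs, held for part of the set. Susd5 and Mab21l2 were close to 0 in WT MPs, Klhl4 and Hnf4a were at a few counts there, and Maf and Spic were low in both groups.

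The study transplanted multipotent progenitors (MPPs) from NA or WT mice into irradiated C57BL/6 recipients and asked which genes changed in the MPs they produced. NA mice were NA LSL/+; Vav-Cre, in which Cre driven by Vav in blood lineages switches on the fusion from the Rosa26 locus together with Tdtomato. MPs (Lin-ckit+Sca1-) were sorted from bone marrow 3 months after transplantation according to the labels, while the study's methods give a later time. The 4 samples of NA MPs were donor-derived and Tdtomato+, and the 5 samples of WT MPs came from mice given WT MPPs and were sorted as CD45.2+. Elsewhere the study describes recipients as CD45.2+ and WT donor cells as CD45.1+, which conflicts with a CD45.2+ sort of donor cells, and the origin of WT MPs was not settled here. The mice shared the C57BL/6 background, irradiation and helper bone marrow cells. Recipients were adult when irradiated. The sources used here do not say whether each sample came from its own mouse, so p-values measure the spread between these samples, which may be technical.

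The 6 genes have roles in other tissues or in mature cells. Susd5 encodes a membrane protein with a sushi domain and a Link domain, the fold that binds hyaluronan in related proteins. Mab21l2 belongs to the Mab-21 family and is needed for eye development, and Klhl4 is a Kelch-like gene, a family whose proteins often bring substrates to the Cullin-3 ubiquitin ligase. Hnf4a is a nuclear receptor that maintains gene expression in liver, gut, pancreas and kidney. Maf is a large Maf transcription factor of macrophages, T cells and the lens, and Spic is an Ets factor related to PU.1 that is required for the iron-recycling macrophages of the spleen and bone marrow. Hoxa10, the homeobox partner of the fusion, binds DNA beside Pbx and Meis proteins.

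The genes lie on different chromosomes of GRCm38, the assembly that corresponds to the mm10 build named for these data. Susd5 (ENSMUSG00000086596) is at chr9:114057140-114098728 on the plus strand, Klhl4 (ENSMUSG00000025597) at chrX:114474333-114560829 on the plus strand, and Hnf4a (ENSMUSG00000017950) at chr2:163506808-163572910 on the plus strand. Mab21l2 (ENSMUSG00000057777) is a single exon at chr3:86545581-86548629 on the minus strand, inside Lrba, which is read from the other strand. Maf (ENSMUSG00000055435) is at chr8:115682942-115707794 and Spic (ENSMUSG00000004359) at chr10:88674772-88685015, both on the minus strand. All of them are annotated as protein-coding in GENCODE M21.

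The sequence before the start site was read from RefSeq (GRCm38.p6) for the genes with the largest rise, with Klhl4 shown because it held 2 searched motifs, Hnf4a because it has 2 annotated starts and Susd5 because it had the largest difference of all tested genes. Each is the 250 bases before an annotated start, on the plus strand, and capitals, in Klhl4 alone, mark a motif. The Klhl4 sequence is chrX:114474083-114474332, where the first capitals are TGATTTAC, a sequence read by Hox and Pbx proteins together, and the second are TGACAG on the opposite strand, a core read by Meis proteins. Hnf4a has an upstream start, with chr2:163506607-163506856, and a downstream start, with chr2:163546905-163547154. The Susd5 sequence is chr9:114057104-114057353.
Klhl4: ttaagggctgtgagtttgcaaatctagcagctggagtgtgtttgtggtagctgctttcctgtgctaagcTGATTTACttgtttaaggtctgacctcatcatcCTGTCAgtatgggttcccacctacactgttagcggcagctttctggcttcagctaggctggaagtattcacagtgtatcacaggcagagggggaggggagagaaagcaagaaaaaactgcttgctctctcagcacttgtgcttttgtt
Hnf4a upstream start: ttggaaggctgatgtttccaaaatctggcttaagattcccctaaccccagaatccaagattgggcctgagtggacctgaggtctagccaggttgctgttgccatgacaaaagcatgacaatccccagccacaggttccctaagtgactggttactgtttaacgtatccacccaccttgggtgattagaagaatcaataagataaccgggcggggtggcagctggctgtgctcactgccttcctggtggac
Hnf4a downstream start: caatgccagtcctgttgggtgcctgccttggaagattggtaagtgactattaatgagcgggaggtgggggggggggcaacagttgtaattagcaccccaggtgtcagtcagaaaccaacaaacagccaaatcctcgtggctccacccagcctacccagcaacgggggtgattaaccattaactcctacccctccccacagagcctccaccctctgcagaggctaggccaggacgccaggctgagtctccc
Susd5: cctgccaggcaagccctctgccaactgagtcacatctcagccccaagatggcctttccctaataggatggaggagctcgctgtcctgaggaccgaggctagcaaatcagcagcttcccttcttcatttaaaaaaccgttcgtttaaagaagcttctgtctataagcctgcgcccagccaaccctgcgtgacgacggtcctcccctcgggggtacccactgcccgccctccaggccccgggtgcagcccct

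Windows of 300 bases, 250 before and 50 after the start, were available for 5 of the 6 genes and for 32851 starts in all, and both strands were searched. Maf had no window. TGATTTAC was found in the Klhl4 window, 181 bases before the start, and in 0.551% of all windows. TGACAG lay 148 bases before the Klhl4 start and is common, being in 19.2% of windows. The Mab21l2 window held TATAAA 192 bases before the start (13.6% of windows). TGATTTAT (0.977% of windows), the PU.1-type sequence GAGGAAGT (3.20%), the Maf-type sequence TGCTGAC (4.67%) and the HNF4-type sequence CAAAGTCCA (0.475%) were in no window of the 6 genes. The searched motifs do not overlap each other in these windows, and they were chosen with the sequences in view. The windows differed in CpG content. Susd5 had 17 CpG and Mab21l2 had 14, against a median of 7 over all windows. Hnf4a had 4 in each window, Spic had 3 and Klhl4 had 1. The RefSeq start of Klhl4 is also the GENCODE M21 gene start, whereas the starts used for Susd5, Mab21l2, Hnf4a and Spic lie inside the GENCODE genes, so their windows overlap transcribed sequence there.

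The deposited values are expected counts that had been scaled by 1 constant per sample, and both forms are used below. A normalised count is the deposited value, and a count is the value after division by that constant. Recovered totals ran from 5557718 to 8106140 counts per sample. Of 11953 genes with enough counts to be tested in edgeR, 34.1% differed between NA MPs and WT MPs at an adjusted p under 0.05, 17.9% being higher and 16.3% lower in NA MPs. The first principal component separated the groups (66.1% of the variance), and on the second (6.18%) NA MP replicate 1 stood apart at 19.3, with the other NA MPs between -9.11 and -2.86. The partners of the fusion were both higher in every NA MP sample. In NA MPs Hoxa10 was at 129 ± 17.7 normalised counts (SD, n = 4), against 8.05 ± 2.57 (SD, n = 5) in WT MPs, and Nup98 at 956 ± 81.8 and 599 ± 29.9. Reads of the fusion cannot be told apart from those of these genes. All 10 marker genes of MPs were detected in both groups, and 80% of them were called, 6 higher and 2 lower. Gata2 (0.44), Prtn3 (0.20), Ctsg (0.18) and Cd34 (0.12) had the largest rises on the log2 scale, and Fcgr3 fell by 0.57 and Myb by 0.09 on that scale. Kit, which defines the sort, did not pass, at 2964 ± 133 normalised counts in NA MPs and 3039 ± 42.4 in WT MPs. Of the lineage antigens that the sort removes, Cd3e was at 0 in all samples, while Itgam was at 508 ± 59.7 and 418 ± 21.3.

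Susd5 had the largest log2 fold change of all tested genes. It was at 360, 298, 248 and 222 normalised counts in NA MP replicates 1 to 4, and at 1.08 in WT MP replicate 1 and 0 in the other WT MPs. These were 1087 counts in NA MPs against a single count in WT MPs. The groups did not overlap, and the NA MP samples spread 1.62-fold from the lowest to the highest. The mean of NA MPs was 282 ± 60.7 (SD, n = 4) against 0.216 ± 0.483 (SD, n = 5) for WT MPs, and the ratio of the count rates was 1410 with an exact 95% interval from 252 to 55731, which covers counting error only. In bulk samples a gene in more cells and a gene with more RNA per cell cannot be told apart.

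Mab21l2 showed the same form, near 0 in WT MPs and well measured in NA MPs. It was at 223, 169, 205 and 198 normalised counts in NA MP replicates 1 to 4, and at 1.02 in WT MP replicate 3 and 0 in the other WT MPs. The groups did not overlap. The ratio of the count rates was 1006 with an exact 95% interval from 180 to 39801, from 776 counts against 1. Mab21l2 shares 1097 exon bases with Lrba, and the sources used here do not state whether the counting used strand, so reads of the pair are uncertain. In WT MPs, where Mab21l2 was near 0, Lrba was at 306 ± 28.1 normalised counts (SD, n = 5). Whether reads of the pair were assigned to the other gene was not tested. In NA MPs Lrba was at 371 ± 13.5 (SD, n = 4), a log2 fold change of 0.28 (SE 0.060, adjusted p = 0.000179 from edgeR).

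Klhl4 was at a few counts in WT MPs and had the smallest spread of the 6 genes in NA MPs. It was at 146, 127, 136 and 125 normalised counts in NA MP replicates 1 to 4, against 3.24, 3.42, 5.09, 2.001 and 5.59 in WT MP replicates 1 to 5. The groups were far apart, with a ratio of the count rates of 33.8 (exact 95% interval 21.6 to 55.8, from 521 counts against 20). Klhl4 is X-linked, so sex-linked genes are given beside it. Xist, which is transcribed from the inactive X chromosome, was at 12480 ± 1149 normalised counts in NA MPs and 13910 ± 1062 in WT MPs, and the Y-linked genes Ddx3y, Eif2s3y and Kdm5d were at 0 in all 9 samples, with 1 count of Uty in an NA MP sample.

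Hnf4a, the liver and gut factor, was detected in every WT MP sample. It was at 251, 211, 203 and 207 normalised counts in NA MP replicates 1 to 4, and at 8.63, 8.56, 7.13, 10.01 and 9.32 in WT MP replicates 1 to 5. No NA MP sample came near the WT MPs, and replicate 1 was the highest NA MP. The mean was 218 ± 22.2 (SD, n = 4) against 8.73 ± 1.07 (SD, n = 5), and the ratio of the count rates was 24.5 (exact 95% interval 18.2 to 33.9, from 851 counts against 45). The antisense gene Hnf4aos was at 0 in all samples.

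Maf and Spic were far lower than the other genes in NA MPs. Maf was at 19.2, 15.2, 20.04 and 19.01 normalised counts in NA MP replicates 1 to 4, and at 2.16, 3.42, 4.08, 8.005 and 4.66 in WT MP replicates 1 to 5. The groups did not overlap, but the gap between them was 15.2 against 8.005, and the ratio of the count rates was 4.06 (exact 95% interval 2.51 to 6.80, from 72 counts against 23). Maf shares 440 exon bases with the antisense gene Gm15655, which had 3 counts in NA MPs and 0 in WT MPs. Spic was at 15.6, 11.1, 11.1 and 16.5 normalised counts in NA MP replicates 1 to 4, and at 4.32, 2.57, 3.06, 3.002 and 11.2 in WT MP replicates 1 to 5. WT MP replicate 5 lay within the range of the NA MPs, so the groups overlapped. The ratio of the count rates was 2.80 (exact 95% interval 1.71 to 4.70, from 54 counts against 25). WT MP replicate 5 held 12 of these WT counts, and the interval covers counting error only, not the spread between samples. Without WT MP replicate 5 the WT mean fell from 4.82 to 3.24 normalised counts and the log2 fold change of Spic moved from 1.48 to 2.07.

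**Figure D1:**
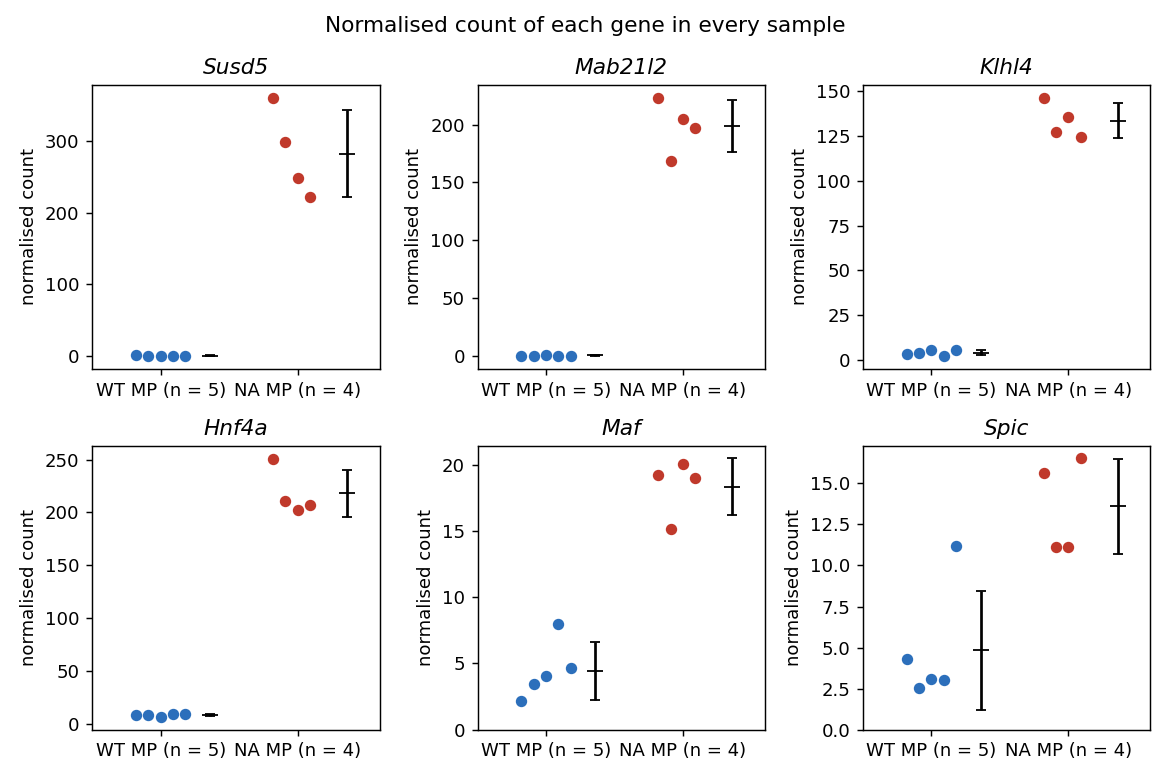
Normalised count of each of the 6 genes in every sample, with WT MPs (blue, n = 5) and NA MPs (red, n = 4), points from left to right in replicate order, and the bar beside each group giving the mean and SD. The vertical axes differ between panels and start at or just under 0. Susd5, Mab21l2, Klhl4 and Hnf4a sit above 120 in NA MPs and at 10.01 or less in WT MPs, whereas Maf and Spic stay under 21 in both groups.

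Set against all tested genes, the 6 fell into separate ranges. Ranked by log2 fold change, Susd5 (9.78, SE 0.41) and Mab21l2 (9.29, SE 0.27) were at positions 1 and 2, and Klhl4 (5.06, SE 0.19) and Hnf4a (4.62, SE 0.14) at positions 7 and 8. Maf (2.01, SE 0.32) was at 118 and Spic (1.48, SE 0.36) at 191. Each SE was derived from the edgeR test statistic. For Susd5 and Mab21l2, which rest on 1 WT count each, it implies far less uncertainty than the exact intervals above. The median of the 6 was 4.84, and that of all tested genes was -0.001. All 6 passed the expression filter through their counts in NA MPs, and the NA MPs lay wholly above the WT MPs for 5 of them, as they did for 13.5% of tested genes (the groups were apart in either direction for 26.3%). Per kb of exon, NA MPs had 69.1 normalised counts of Susd5, 65.1 of Mab21l2, 45.2 of Hnf4a and 37.3 of Klhl4, levels between percentile 39.1 and percentile 57.4 of 11612 tested genes with a known length. Spic (3.54 per kb) and Maf (2.23 per kb) were at percentiles 4.14 and 1.96 on the same scale. The first 4 genes thus had the level of a middling gene of these cells, and the last pair was among the lowest tested genes. In WT MPs Susd5 was at 0.0529 and Mab21l2 at 0.0668 normalised counts per kb, Maf at 0.542, Klhl4 at 1.08, Spic at 1.26 and Hnf4a at 1.81.

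A stricter reading of silent and high picked the first pair alone. Of all tested genes, 13 had at most 3 counts in every WT MP sample, and 2 of these, Susd5 and Mab21l2, reached 50 normalised counts in NA MPs. Hoxb5 followed at 47.3 and Hoxb8 at 35.9, and the other 9 were between 14.9 and 27.3. Hoxb5 and Hoxb8, homeobox genes of the Hoxb cluster, were chosen for naming after their values were seen. A gene reaches this list only through counts in NA MPs, so its length is no measure of change.

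**Figure D2:**
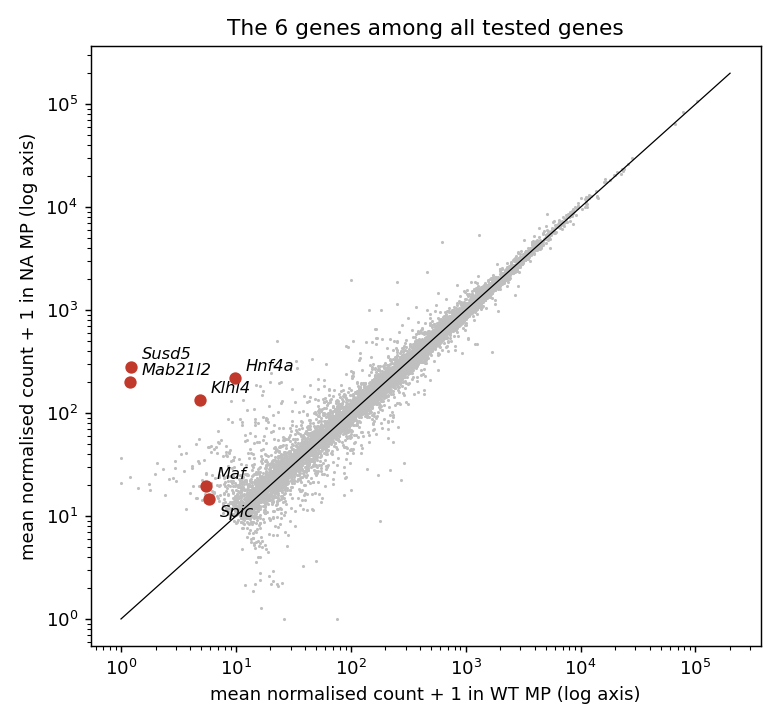
Mean normalised count plus 1 in WT MPs (horizontal, log axis) and in NA MPs (vertical, log axis) for the 11953 tested genes (grey), with the 6 genes in red and the line of equal levels in black. Susd5 and Mab21l2 stand at the left edge at 282 and 199 in NA MPs, and Maf and Spic lie in the lower left, much closer to the line.

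Among the NA MP samples the genes did not share 1 order. Replicate 1 was the highest for Susd5, Mab21l2, Klhl4 and Hnf4a, replicate 3 for Maf and replicate 4 for Spic. The coefficient of variation was 21.5% for Susd5, against 6.11% from counting alone, and it exceeded that of 98.5% of the 3369 tested genes with a mean of 100 to 300 normalised counts (median 7.58%). For Mab21l2 it was 11.4% (percentile 82.1), for Hnf4a 10.2% (percentile 74.3) and for Klhl4 7.31% (percentile 47.2, with 8.80% from counting alone). Susd5 was thus more variable than most genes of its level, and Klhl4 was no more variable than counting alone gives. Maf (11.8%) and Spic (21.2%) varied less than counting alone gives (23.9% and 28.2%). Without NA MP replicate 1, the log2 fold change was 9.67 for Susd5, 9.24 for Mab21l2, 5.02 for Klhl4, 4.56 for Hnf4a, 1.99 for Maf and 1.43 for Spic.

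**Figure D3:**
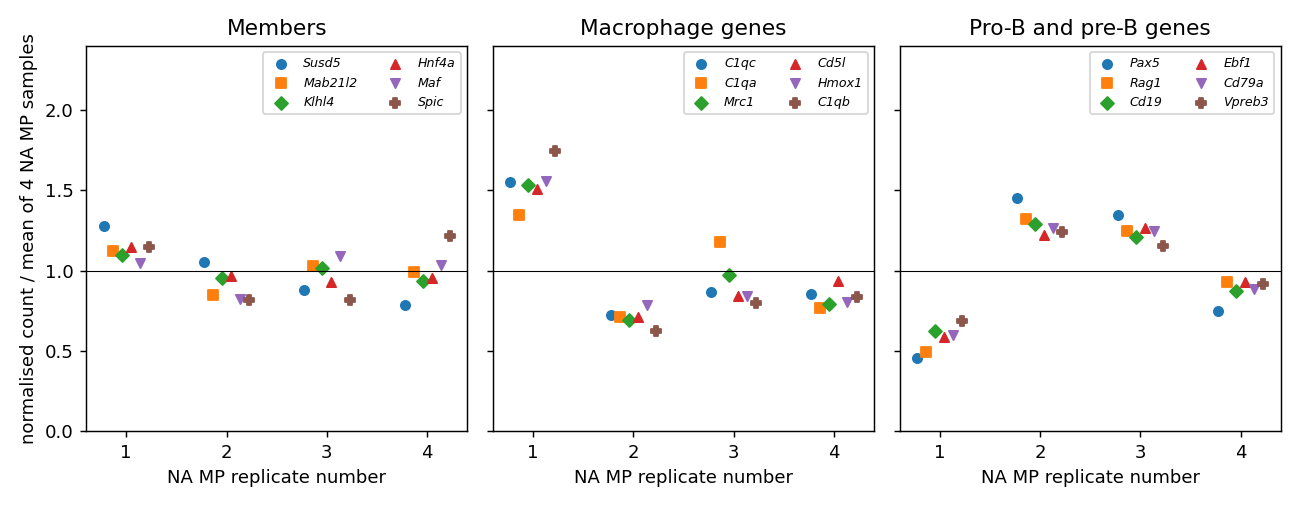
Normalised count in each NA MP replicate divided by the mean of the 4 NA MPs, for the 6 genes (left), the 6 macrophage genes with the largest rise (middle) and the 6 pro-B and pre-B genes with the largest rise (right), 1 symbol per gene, the line marking the mean. In replicate 1 all 6 macrophage genes shown are at their highest and all 6 pro-B and pre-B genes at their lowest, while the 6 genes on the left stay within 0.79 to 1.28.

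Few genes that act with Hnf4a in liver and gut had enough counts to be tested. Over the whole table, 20182 of 37980 genes had any count and 11953 were tested, so counts of 0 were common. Of 22 such factors, 12 had 0 counts in all samples, among them its closest relative Hnf4g and the liver factors Foxa1, Foxa2 and Onecut1, and 4 had enough counts to be tested. Rxra, a partner of many nuclear receptors, rose by a log2 fold change of 0.42 (SE 0.14, adjusted p = 0.0128 from edgeR). Rxrb was at 0.10 (adjusted p = 0.0451 from edgeR) and was past the threshold in 6 of 20 alternatives, and Nr0b2 and Nr2f6 did not pass. Of 33 liver and gut targets of Hnf4a, 10 had 0 counts in all samples, among them Alb, Apoa4 and Cyp7a1, and 3 were tested. Trf, which encodes the iron carrier transferrin, rose from 492 ± 31.0 (SD, n = 5) to 833 ± 64.2 (SD, n = 4) normalised counts, a log2 fold change of 0.76 (SE 0.049, adjusted p = 2.66e-17 from edgeR). Cyp27a1, a sterol hydroxylase, rose by 0.56 (SE 0.20, adjusted p = 0.0213 from edgeR), which without WT MP replicate 3 was 0.44 (adjusted p = 0.0838), without NA MP replicate 3 was 0.54 (adjusted p = 0.0505) and without WT MP replicate 4 was 0.51 (adjusted p = 0.053). Mttp, which loads lipid onto apolipoprotein B, was at -0.11 and did not pass. Apolipoprotein B itself had 31 counts in NA MPs and 13 in WT MPs, too few to be tested. Of 7 hepatocyte markers, Alb, Fga, Fgb and Serpina1a were at 0 in all samples and none was tested, with sums of 6.68 to 10.1 normalised counts in NA MPs and 1.02 to 3.73 in WT MPs. These sums were almost wholly Apob, the apolipoprotein B gene already given, as Apoa1 and Ttr had 1 count each.

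Genes of macrophages, cells that normally express Maf and Spic, were mostly higher in NA MPs. Of 23 macrophage genes 18 were tested, and 13 were higher, 1 was lower and 4 did not pass, so that 77.8% were called against 34.1% of all tested genes. Their median log2 fold change was 1.09, and 16 passed when NA MP replicate 1 was left out. The complement genes C1qc (2.54, SE 0.31) and C1qa (2.44, SE 0.20), the mannose receptor Mrc1 (2.20, SE 0.30) and the scavenger protein Cd5l (2.19, SE 0.26) rose most. Vcam1, the adhesion molecule of iron-recycling macrophages, fell by 0.25 on the log2 scale (SE 0.061), and Slc40a1, their iron exporter, was at -0.22 and did not pass. Csf1r, the growth factor receptor of macrophages, was at 0.08 and did not pass. C1qa, C1qb and C1qc summed to 330, 149, 206 and 176 normalised counts in NA MP replicates 1 to 4, and to between 30.2 and 51.0 in WT MPs. The whole list summed to 4533 to 5179 in NA MPs and 3382 to 3565 in WT MPs, none of its genes being at 0 in all samples, and its part in the values of Maf and Spic was not tested.

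Relatives of Maf and Spic mostly showed smaller differences, and Spib a larger one. Among Maf factors and their partners, 8 of 12 were tested, 4 being higher and 1 lower (62.5% called, against 34.1% of all tested genes). The median log2 fold change of this list was 0.20. Bach2, a repressor that pairs with small Maf proteins and acts in B cells, rose by 1.25 (SE 0.16), and the haem sensor Bach1 by 0.27, Nfe2 by 0.21 and Mafk by 0.19. Nfe2l2 fell by 0.23 on the log2 scale. Of 25 Ets factors 17 were tested, 9 being higher, 1 lower and 7 not past the threshold (58.8% called, against 34.1%), with a median of 0.10. Spib, a B cell relative of Spic, rose from 3.12 ± 1.62 (SD, n = 5) to 28.5 ± 13.02 (SD, n = 4) normalised counts, a log2 fold change of 3.14 (SE 0.37, adjusted p = 6.23e-09 from edgeR). Ets1 (0.73), Erg (0.49) and Etv6 (0.18) rose, as did Spi1, which encodes PU.1, by 0.15 (SE 0.034). Gabpa was at -0.13 (adjusted p = 0.0202 from edgeR), at -0.09 without NA MP replicate 2 (adjusted p = 0.13) and at -0.12 without WT MP replicate 5 (adjusted p = 0.0564). When NA MP replicate 2 was left out, 6 Ets factors passed in place of 10, as was the case when WT MP replicate 1 was left out.

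B cell genes moved with Spib and Bach2. All 13 tested genes of pro-B and pre-B cells were higher in NA MPs, as were 17.9% of all tested genes, with a median log2 fold change of 3.40, and all 13 passed without NA MP replicate 1 as well. They summed to 1533, 2708, 2712 and 2046 normalised counts in NA MP replicates 1 to 4, and to between 392.2 and 428 in WT MPs. Replicate 1, the highest for Susd5, Mab21l2, Klhl4 and Hnf4a, was thus the lowest for these genes. None of the list was at 0 in all samples, and its part in the values of Spib and Bach2 was not tested. Of 7 T cell genes 1 was tested, Lck, which rose by 2.27, and Cd3e and Cd3g were at 0. Of 9 mature neutrophil genes 6 were tested, 3 being higher, 1 lower and 2 not past the threshold (66.7% called, against 34.1% of all tested genes), and the list summed to 3215 to 5033 in NA MPs and 2705 to 3163 in WT MPs. Of 9 endothelial and stromal genes, Pdgfrb rose by 1.06 and Tek fell by 1.97 on the log2 scale, and the others were too low to be tested.

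Most tested genes of the Kelch-like family did not pass, and those of the sushi and Link domain list went both ways. Of 40 Kelch-like genes and Cullin-3 ligase parts that were counted, 27 were tested, and 5 were higher, 2 lower and 20 not past the threshold. The share called was 25.9%, against 34.1% of all tested genes, and the median log2 fold change was 0.02. Klhl5, a close relative of Klhl4, rose by 0.40 (SE 0.038), Klhl22 rose by 0.24 and Klhl6 by 0.15, while Klhl12 fell by 0.41 and Klhl9 by 0.21 on the log2 scale. Klhl18 was at 0.18 (adjusted p = 0.0366 from edgeR) and was past the threshold in 8 of 20 alternatives. The ligase parts Cul3 (0.02) and Rbx1 (-0.03), and Keap1 (0.03), the Kelch-like sensor of oxidative stress, did not pass. The list of 25 sushi and Link domain genes also held hyaluronan synthases and Hmmr, which have neither domain. Of these 25 genes 8 were tested, 2 being higher, 2 lower and 4 not past the threshold (50% called, against 34.1% of all tested genes), with a median of 0.03. Susd2 (0.94, SE 0.21) and Susd1 (0.21, SE 0.038) rose, and the hyaluronan receptors Hmmr and Cd44 fell by 0.35 and 0.22 on the log2 scale. Susd4 was at 0 in all samples. No matched relative of Mab21l2 had enough counts to be tested, and Mab21l1, the closest, had 2 counts in NA MPs and 5 in WT MPs. The relatives Mb21d1 and Mab21l4 were not matched, so their counts were not examined.

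**Figure D4:**
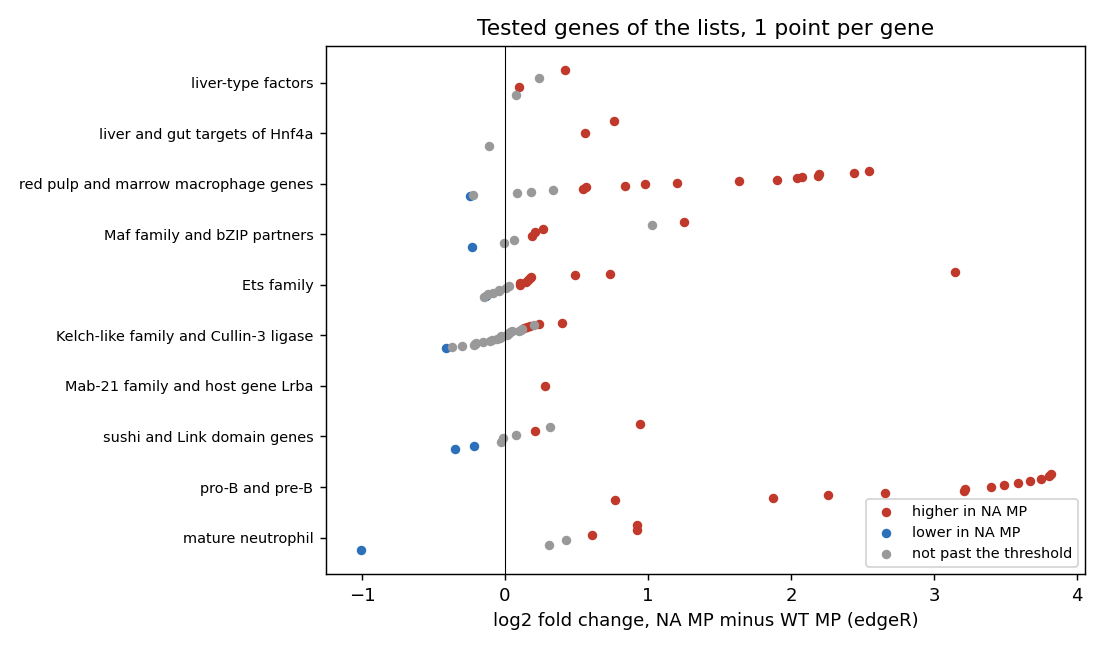
Log2 fold change from edgeR (NA MPs minus WT MPs) of every tested gene in 10 lists, 1 point per gene, stacked by value within a list, red for higher, blue for lower and grey for not past an adjusted p of 0.05. The pro-B and pre-B genes reach from 0.77 to 3.82, the macrophage genes from -0.25 to 2.54, and the Kelch-like genes gather around 0, while Spib at 3.14 stands away from the other Ets factors.

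Genes beside the 6 were compared to see whether the differences extended along the chromosome. Of the 3 nearest protein-coding genes on each side of each gene, 36 in all, 21 were tested, 6 being higher, 2 lower and 13 not past the threshold. The share called was 38.1%, near the 34.1% of all tested genes, and no neighbour reached a log2 fold change of 0.6 in size. Fbxl2, 10.9 kb before Susd5, rose by 0.56 (SE 0.10, adjusted p = 1.93e-05 from edgeR), the largest of them. Farther from Susd5, Clasp2 was at -0.19 (adjusted p = 0.0104 from edgeR), at -0.15 without NA MP replicate 2 (adjusted p = 0.0561), and Glb1 was at 0.13 (adjusted p = 0.0178 from edgeR), at 0.11 without NA MP replicate 2 (adjusted p = 0.0677). Ubp1 (-0.01) and Crtap (0.08) did not pass, and Bcl2a1c was at 0.

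Around Mab21l2, besides its host Lrba, Rps3a1 (0.09) and the lipid-presenting Cd1d1 (0.37) rose, Dclk2 (0.04) did not pass, Prss48 was at 0 and Kirrel had 3 counts. Both tested neighbours of Klhl4, Dach2 (0.24) and Chm (0.03), did not pass, and Pof1b, Ube2dnl1, Ube2dnl2 and Cpxcr1 were at 0. R3hdml, which ends 4.2 kb before Hnf4a, was at 0 in all samples, while Fitm2 (-0.12), Ttpal (-0.01) and Pkig (0.11) did not pass. Serinc3, 50.4 kb after Hnf4a, was at 0.08 (adjusted p = 0.0112 from edgeR), and at 0.06 without NA MP replicate 3 (adjusted p = 0.0862). Gdap1l1 had 2 counts in NA MPs and 1 in WT MPs. Near Maf, Wwox (0.06), Cdyl2 (0.04) and Cmc2 (-0.17) did not pass, Clec3a and Vat1l were at 0 and Dynlrb2 had 1 count. Near Spic, Utp20 fell by 0.20 on the log2 scale (SE 0.040), and Arl1 (0.04) did not pass. Chpt1 was at -0.13 (adjusted p = 0.266 from edgeR), and at -0.21 without WT MP replicate 1 (adjusted p = 0.0449). Mybpc1, Sycp3 and Slc5a8 had at most 4 counts.

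**Figure D5:**
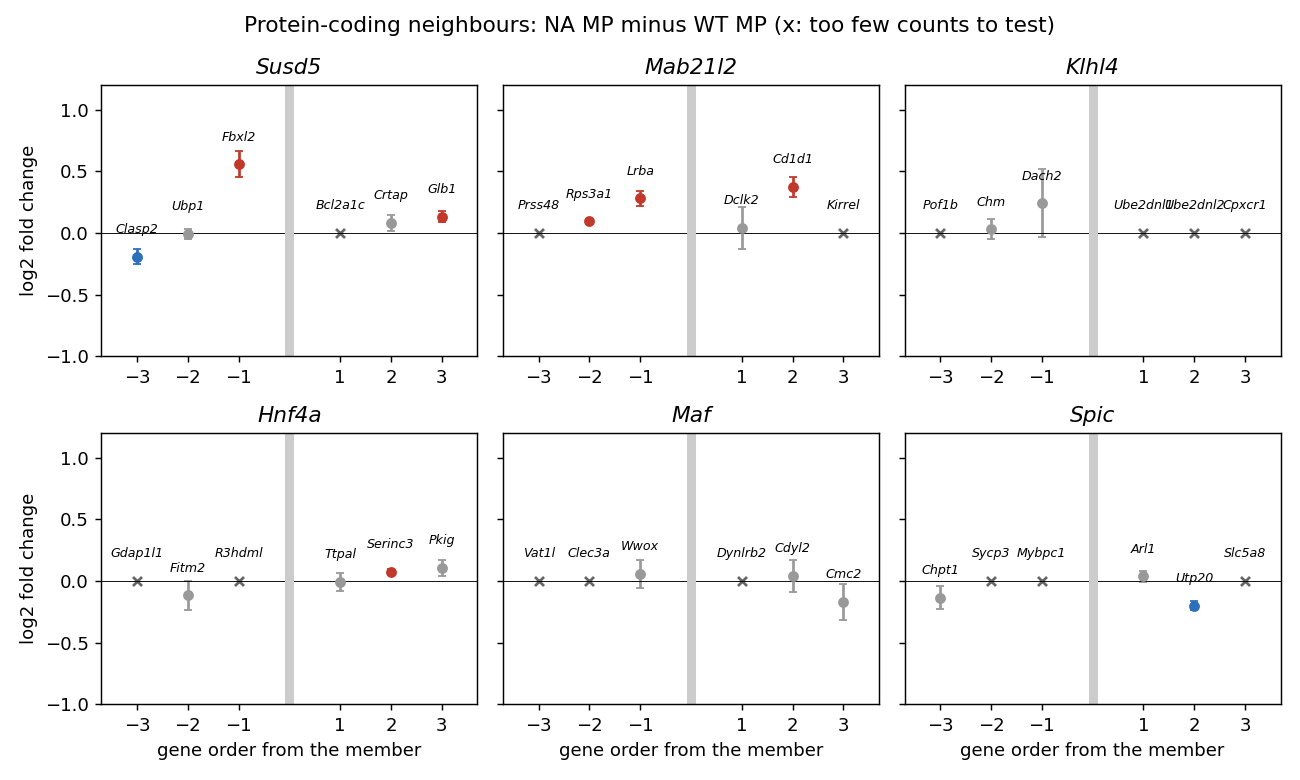
Log2 fold change from edgeR (NA MPs minus WT MPs) of the 3 nearest protein-coding genes before and after each of the 6 genes in chromosome order, bars giving the standard error, red for higher, blue for lower, grey for not past the threshold and crosses at 0 for genes too low to be tested. The grey band marks the gene itself, and all 21 tested neighbours lie between -0.20 and 0.56.

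The tested genes whose pattern over the 9 samples was most like each of the 6 were found by the root mean square difference of log2 CPM, after centring each gene on its mean. The measure includes the difference between the groups, by which the 6 were chosen, and its prior count of 2 damps values near 0. Susd5 and Mab21l2 were nearest to each other, at 0.42. Dsp, which encodes the junction protein desmoplakin, was the nearest to Hnf4a (0.16) and to Klhl4 (0.33), and was at 499 ± 71.6 normalised counts in NA MPs and 21.6 ± 3.50 in WT MPs. Hoxb8 was the second nearest to Hnf4a (0.22), though its fitted log2 fold change was 8.17, with 0 counts in WT MPs, against 4.62 for Hnf4a. Maf was nearest to the immediate early genes Junb (0.21) and Jun (0.23) and to the antisense gene Junos (0.24). Jun was at 5342 ± 1309 normalised counts in NA MPs and 1307 ± 385 in WT MPs, and since Junos is antisense to it the counts of the pair are uncertain. Spic was nearest to Lax1 (0.34), Il12rb1 (0.36) and Abca4 (0.36). The difference between Maf and Spic was 0.58, and each was more than 1.3 from Hnf4a.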

How the data were processed

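Poly(A) RNA of 4 NA MP and 5 WT MP samples was sequenced by the authors (TruSeq library, NextSeq 500). Per the labels, bcl2fastq, RSEM and DESeq2 were used on build mm10, and versions, annotation and the use of strand are not given in the sources used here. The authors deposited 1 table of expected counts for 37980 genes, described as raw. Tested on the file, 97.4% of the deposited values above 0 were whole multiples (within 0.01) of 1 constant per sample, against 5.38% whole as deposited. The constants, from 0.827 to 1.20, matched the inverse of DESeq2 size factors to within 0.237%, so deposited totals differ 1.02-fold and recovered totals 1.46-fold. Values were divided by the constant and rounded, a departure from the planned fit on unscaled expected counts. Deeper samples have less counting error.

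Counts were tested in R 4.3.3 with edgeR 4.0.16 (TMM, filterByExpr with a minimum count of 10, robust quasi-likelihood test, group only), adjusted by Benjamini-Hochberg over all 11953 tested genes at 0.05, with a biological coefficient of variation of 3.49%. On simulated data for this comparison, with 200 of 11953 genes changed, 97% were recovered and 7.18% of calls were false. The simulation gave all genes the same dispersion and only large changes, so its rates need not hold for small differences or for more variable genes. DESeq2 1.42.0, limma 3.58.1, other normalizations, filters, thresholds, the replicate block and leaving out each sample were alternatives. Replicates were compared pairwise, and the chi-square per degree of freedom ran from 1.20 to 2.84, above sampling noise for all pairs. A standard error (SE) is the size of the log2 fold change divided by the square root of the F statistic of the edgeR test. It is not a standard error of the fitted coefficient, and is too small for genes near 0 in WT MPs. Intervals cover counting error only, as reads had no molecular identifiers. Symbols were matched for 32916 genes, and the listed genes Mb21d1, Mab21l4 and Klhl17 were not matched.

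The 6 genes and the lists were chosen with earlier results of these data known. Genes named are the 6, their neighbours, in each list up to 4 past the threshold with the largest rise and up to 4 with the largest fall, close relatives, the 3 most alike genes, and marker genes, partners and other examples chosen after their values were seen. Positions and overlaps came from GENCODE M21 and promoter windows from RefSeq. No column of the table was left without a sample. A few of these genes are not reported here.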

Additional observations from a re-analysis of the deposited data

Results flagged for a closer look

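Of 209 groups of samples examined, 14 held a sample far from the others by Dixon's criterion, where chance gives about 1 in 20, or 10.45. Susd5 was at 1.08 normalised counts in WT MP replicate 1 and Mab21l2 at 1.02 in WT MP replicate 3, each the single count of its group. Spic was at 11.2 in WT MP replicate 5, above the other WT MPs. NA MP replicate 1 was high for C1qc (126) and Gata2 (1840) and low for Itgam (419). WT MP replicate 1 was low for Ets1 (154), Etv6 (2120) and Camp (109), and WT MP replicate 4 was high for Cd34 (2487) and Ebf1 (16.0). NA MP replicate 4 was high for Ubp1 (914) and Dach2 (15.7), and the summed liver and gut targets of Hnf4a were highest in NA MP replicate 3 (993).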

How the results depend on the processing

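None of the 6 genes changed direction in the alternatives run for it, nor did a called value of the 81 other tested named genes. The direction of the remaining called genes was not examined. The median log2 fold change of the 6 genes moved from 4.84 to 4.44 with a prior count of 2, which lowered Susd5 to 7.02 and Mab21l2 to 6.52, and over all alternatives Susd5 ran from 7.02 to 11.2 and Mab21l2 from 6.52 to 10.7, since each rests on a single WT count (11.2 without WT MP replicate 1 and 10.7 without WT MP replicate 3). Klhl4 ran from 4.53 to 5.23, Hnf4a from 4.36 to 4.67, Maf from 1.66 to 2.31 and Spic from 1.21 to 2.07. Of 10 Ets factors past the threshold, DESeq2 and an adjusted p under 0.01 each left 5, and leaving out each sample left 6 to 10. DESeq2 left 4 of 7 Kelch-like genes, and an adjusted p under 0.01 left 1 of 4 neutrophil genes and 5 of 8 neighbours. At least 10 counts in every sample left 8 pro-B and pre-B genes, fewer being tested. Of 81 tested named genes other than the 6, 65 stayed on their side of the threshold in every alternative run. The replicate numbers did not pair the samples (correlations of same-numbered deviations from -0.019 to 0.053, no NA MP being most like its own number). The replicate block moved the calls from 4078 to 3741 and Spic to 2.05. WT MP replicate 5 has no NA MP partner under the block and adds nothing to its contrast, and leaving that sample out moved Spic to 2.07. Depth limits Maf and Spic most, at 10 to 23 counts in an NA MP sample.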
